A study of Mus musculus with 21 samples.

Results

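The Msx, Lmx1 and Mab21l genes, regulatory genes known from the roof plate of the embryonic brain, were read in the newborn subcommissural organ (SCO), a gland at the dorsal midline that secretes the Reissner fibre, and in the hippocampus. The 7 genes, Msx1, Msx2, Msx3, Lmx1a, Lmx1b, Mab21l1 and Mab21l2, were picked by name from the 31883 genes of the deposited table, and each name matched 1 row. Bulk RNA sequencing gave 4 libraries of SCO and 5 of hippocampus, all from C57BL/6 mice at postnatal day 0, and the labels name no genotype or treatment. The 12 libraries of postnatal day 60 were not analysed here. The labels do not tell whether replicates are separate animals or pools, so p-values measure only how these libraries vary, which may be technical variation.

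The roof plate is the dorsal midline of the neural tube, a signalling centre that secretes BMP and Wnt proteins, and the SCO forms from it in the caudal diencephalon. Msx genes encode homeodomain repressors that BMP signals switch on, and mice without Msx1 fail to form a normal SCO. Lmx1a and Lmx1b encode LIM homeodomain activators of the roof plate that also act in midbrain dopaminergic neurons, and Lmx1b acts in serotonergic neurons as well. Mab21l1 and Mab21l2 are vertebrate relatives of the C. elegans gene mab-21, and in mice both are needed in the developing eye.

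The members of the Lmx1 and Mab21l families resemble each other closely, so coding sequences are shown for how far the reads of relatives can be told apart. In each of these families the in-frame window of 180 coding bases that is most alike was found in the GENCODE M21 transcripts of GRCm38. In the Lmx1 genes this window holds the homeobox, which encodes the DNA-binding homeodomain. Capitals mark bases that differ from the first gene of the family.
Lmx1a: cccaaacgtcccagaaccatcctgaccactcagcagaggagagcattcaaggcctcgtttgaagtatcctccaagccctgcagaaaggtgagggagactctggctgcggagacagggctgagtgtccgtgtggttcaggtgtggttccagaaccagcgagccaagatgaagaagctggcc
Lmx1b: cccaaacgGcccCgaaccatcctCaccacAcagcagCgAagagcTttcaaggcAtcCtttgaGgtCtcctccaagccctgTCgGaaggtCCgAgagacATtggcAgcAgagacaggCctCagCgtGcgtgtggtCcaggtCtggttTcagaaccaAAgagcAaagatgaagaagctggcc
Lmx1b shared 149 bases with Lmx1a, and all 60 codons stood for the same amino acid.
Mab21l1: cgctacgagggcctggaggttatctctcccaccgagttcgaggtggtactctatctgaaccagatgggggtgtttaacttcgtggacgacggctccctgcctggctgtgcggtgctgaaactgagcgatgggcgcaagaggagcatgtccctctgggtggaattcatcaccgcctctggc
Mab21l2: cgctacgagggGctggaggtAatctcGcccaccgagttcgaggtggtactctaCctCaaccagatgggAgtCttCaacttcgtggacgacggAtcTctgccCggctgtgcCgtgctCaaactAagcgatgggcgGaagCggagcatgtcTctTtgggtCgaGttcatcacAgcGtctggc
Mab21l2 shared 158 bases with Mab21l1, again with all 60 codons for the same amino acid. Over the whole coding sequences, the longest identical run was 26 bases between Mab21l1 and Mab21l2 and 21 between Lmx1a and Lmx1b. The read length and the handling of reads that match several genes are not stated in the sources at hand.

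Levels are given as normalized counts, which are reads per gene after division by the size factor of the library. Depth was 35379988 to 64242533 reads in SCO libraries and 36787949 to 151009954 in hippocampus libraries. Hippocampus replicates 4 and 5 were the deepest, with 151009954 and 143312271 reads, and no other library exceeded 64242533. A value of 0 allows up to 3 reads, on average 3.75 normalized counts in SCO and 2.81 in hippocampus. Such limits cover counting error only. Of 8 SCO markers 5 were higher in SCO, and of 12 markers of hippocampal and cortical neurons 9 were lower there. The summed level of these neuron markers was 8507 to 13198 normalized counts in SCO and 132489.7 to 172448 in hippocampus.

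Between the tissues, Mab21l2 rose and Msx3 fell in SCO. The test was limma-trend on log2(normalized count + 1) over 28150 genes, with Benjamini-Hochberg adjustment and a threshold of 0.05, and all 7 genes entered it. The 2 calls among 7 genes stand beside 3.05% of all tested genes called in either direction, 1.71% higher and 1.34% lower in SCO. Values of SCO and hippocampus stood fully apart, with no overlap, for Mab21l2, Mab21l1 and Msx3, which is 3 of 7, against 8.53% of all tested genes. In bulk samples, fewer cells of a type and less RNA per cell cannot be told apart.

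**Figure D1:**
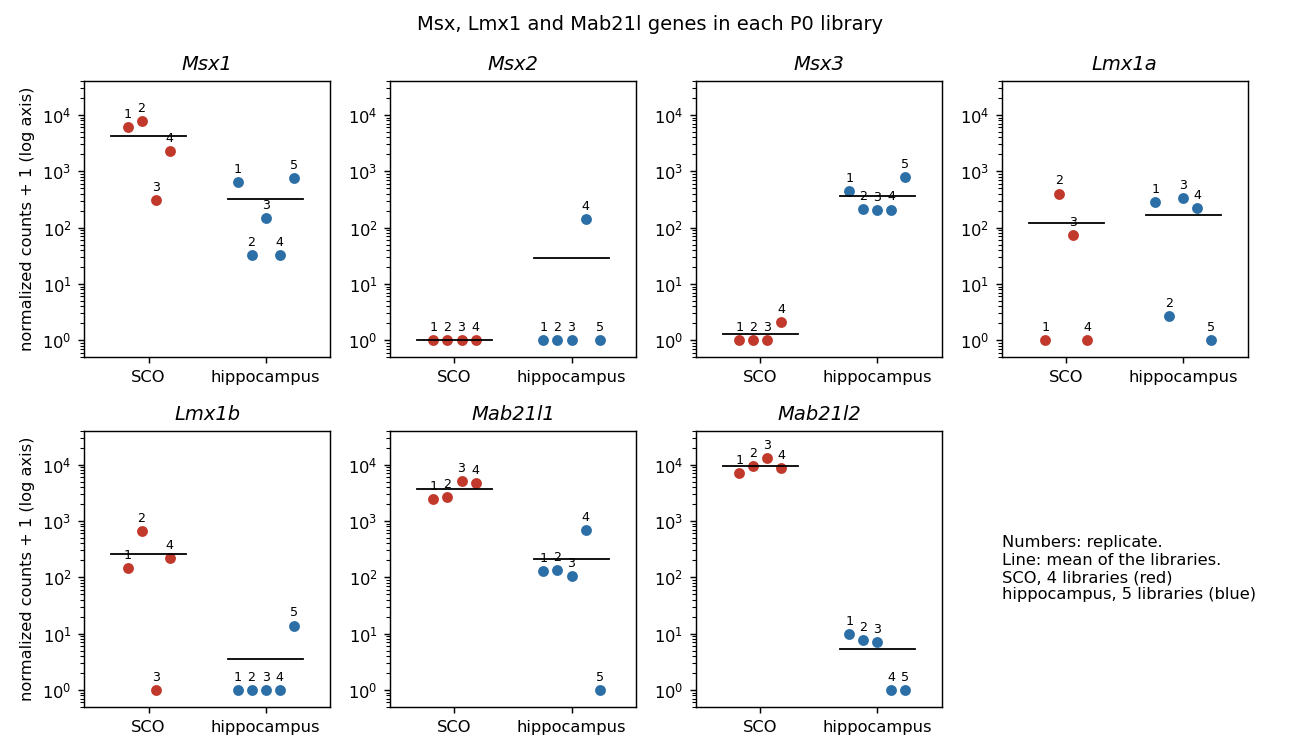
Normalized counts + 1 on a log axis for the 7 genes in each P0 library, with SCO at the left (4 libraries, red) and hippocampus at the right (5 libraries, blue), replicate numbers beside the points and the mean as a line. Mab21l2 lies at 7102 to 13327 in SCO and at or under 8.74 in hippocampus, and Msx3 shows the opposite order.

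Mab21l2 had 7102, 9396, 13327 and 8783 normalized counts in SCO replicates 1 to 4, against 8.74, 6.60, 6.19, 0 and 0 in hippocampus replicates 1 to 5. All SCO libraries were far above all hippocampus libraries, which held 17 reads of the gene in all, against 33565 in SCO. The mean was 9652 ± 2635 in SCO (SD, n = 4) and 4.31 ± 4.05 in hippocampus (SD, n = 5). The difference was 11.39 on the log2 scale, with a standard error of 0.91 (limma adjusted p = 0.000202). This was rank 2 from the highest of the 28150 log2 fold changes. With any 1 library left out, the limma adjusted p stayed between 0.000371 and 0.00204. Mab21l2 (ENSMUSG00000057777.4) occupies 86545581 to 86548629 of chromosome 3 in GRCm38, on the minus strand, as 1 exon.

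Mab21l1, its closest relative, had 2481, 2621, 5159 and 4665 normalized counts in SCO, against 126, 134, 106, 684 and 0 in hippocampus. The tissues did not overlap, and hippocampus replicate 4 was nearest to SCO while replicate 5 had no read. The mean was 3732 ± 1379 in SCO (SD, n = 4) and 210.0 ± 270.3 in hippocampus (SD, n = 5), a ratio of 17.8. The log2 fold change of 5.74 (SE 1.53) did not pass (limma adjusted p = 0.0784). Without hippocampus replicate 5 it was smaller, 4.23, and passed (limma adjusted p = 0.00836). In the other 8 fits with 1 library left out it did not pass (limma adjusted p up to 0.171). The authors' deposited table gives Mab21l1 a log2 fold change of 4.15 (SE 1.16) with an adjusted p of 0.00519. Mab21l1 (ENSMUSG00000056947.5) sits on chromosome 3, from 55782510 to 55785001 (plus strand), also as 1 exon.

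Both Mab21l genes lie inside a larger gene on the opposite strand, Mab21l1 in Nbea and Mab21l2 in Lrba, which encode related BEACH domain proteins. Exons of Nbea share 981 bases with Mab21l1, all in a transcript annotated as a retained intron. Exons of Lrba share 1097 bases with Mab21l2, of which 1035 are in a retained intron transcript and 62 in a protein-coding one. Whether strand was used in counting is unknown from the sources here, and without strand the reads within the shared bases cannot be told apart. These bases are a part of the 2492 exon bases of Mab21l1 and the 3049 of Mab21l2.

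**Figure D2:**
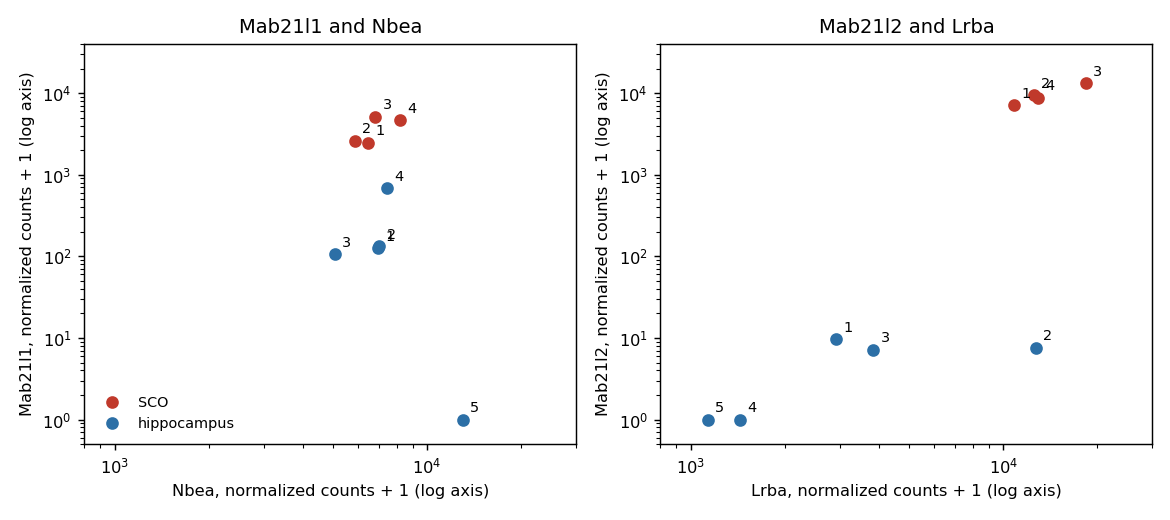
Normalized counts + 1, on log axes, of Mab21l1 against Nbea (left) and of Mab21l2 against Lrba (right) in 4 SCO libraries (red) and 5 hippocampus libraries (blue), numbered by replicate. Hippocampus replicate 2 has as much Lrba as SCO libraries and 6.60 normalized counts of Mab21l2.

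Lrba had 10796, 12539, 18394 and 12948 normalized counts in SCO, against 2911, 12739, 3836, 1437 and 1134 in hippocampus. Hippocampus replicate 2 lay within the SCO range of Lrba, while its Mab21l2 value of 6.60 was like that of other hippocampus libraries. Lrba was higher by 2.17 on the log2 scale, with SE 0.61 and limma adjusted p = 0.0904, and by 2.70 without that library (limma adjusted p = 0.00750). In the other 8 fits with 1 library left out Lrba did not pass (limma adjusted p up to 0.198). Nbea had 5861 to 8190.0 in SCO and 5056 to 13015 in hippocampus, and its highest library, hippocampus replicate 5, was the one without a read of Mab21l1.

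Msx1 had 6187, 7799, 310.5 and 2297 normalized counts in SCO, against 650.4, 31.4, 145, 32.2 and 764 in hippocampus. SCO replicates 1, 2 and 4 stood above all hippocampus libraries, but SCO replicate 3 lay below hippocampus replicates 1 and 5. The mean was 4149 ± 3447 in SCO (SD, n = 4) and 325 ± 354 in hippocampus (SD, n = 5), a ratio of 12.8. The log2 fold change of 4.01 (SE 1.24) did not pass (limma adjusted p = 0.125), nor did it with any 1 library left out (limma adjusted p from 0.0662 to 0.276). The authors' deposited table gives Msx1 3.68 (SE 1.03) with an adjusted p of 0.00497. Msx1 (ENSMUSG00000048450.10) sits on chromosome 5, from 37820485 to 37824583 (minus strand).

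Msx3, known in the mouse embryo from the dorsal hindbrain and spinal cord, was the member that fell. It had 0, 0, 0 and 1.12 normalized counts in SCO, against 439, 209.7, 204, 208 and 781 in hippocampus. The SCO value is 1 read in 4 libraries, and every hippocampus library was above it. SCO minus hippocampus was -8.03 on the log2 scale, with SE 0.91 and limma adjusted p = 0.00121, and limma adjusted p-values ran from 0.00220 to 0.00592 with any 1 library left out. With reads pooled and scaled by size factor, SCO held a level 1422 times lower, with an exact 95% interval for counting error from 255 to 56190. Msx3 (ENSMUSG00000025469.10) sits on chromosome 7, from 140046157 to 140049089 (minus strand).

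Msx2, another BMP target of the family, was nearly unread. It had no read in the 4 SCO libraries, and in hippocampus 142 normalized counts, or 389 reads, in replicate 4 and none in the other 4. The difference of -1.43 on the log2 scale, with SE 1.44 and limma adjusted p = 0.657, rests on that library, and without it the gene has no read in either tissue. With up to 3 reads allowed in each SCO library, the level was at least 7.58-fold lower in SCO, a bound that rests on hippocampus replicate 4 alone. EdgeR gave -8.17 (edgeR adjusted p = 0.284), and the authors' deposited table gives Msx2 -21.54 with no p-value. Fitted values against a tissue without a read depend on the method and are no bound. Msx2 (ENSMUSG00000021469.9) sits on chromosome 13, from 53466884 to 53473074 (minus strand).

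The Lmx1 genes were read in some libraries and absent from others of the same tissue. Lmx1a had 0, 402, 72.1 and 0 normalized counts in SCO, against 287, 1.65, 340.5, 219 and 0 in hippocampus, and the tissues overlapped widely. SCO minus hippocampus was -1.44 on the log2 scale, with SE 2.46 and limma adjusted p = 0.793. The standard error exceeds the difference, and no difference in Lmx1a was detected. Lmx1a (ENSMUSG00000026686.14) sits on chromosome 1, from 167689237 to 167848741 (plus strand).

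Lmx1b had 148, 663, 0 and 217 normalized counts in SCO, against 0, 0, 0, 0 and 12.9 in hippocampus. SCO replicates 1, 2 and 4 stood above all hippocampus libraries, and SCO replicate 3 held no read. The log2 fold change of 5.33 (SE 1.85) did not pass (limma adjusted p = 0.178). Without SCO replicate 3 it was 7.36 and passed (limma adjusted p = 0.0234). In the other 8 fits with 1 library left out it did not pass (limma adjusted p up to 0.349). The authors' deposited table gives Lmx1b 6.59 (SE 2.40) with an adjusted p of 0.0488. Lmx1b (ENSMUSG00000038765.13) sits on chromosome 2, from 33560965 to 33640511 (minus strand).

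Values of 0 in some library were common at such levels. They were counted over both tissues, so a gene unread in a whole tissue, as Msx3 nearly was in SCO, counts too. Lmx1a, Lmx1b and Msx3 have a mean of 100 to 300 normalized counts over the 9 libraries, a range in which 52.1% of 3372 genes had at least 1 library at 0. Msx1 and Mab21l1 lie in the range of 1000 to 3000, where it was 2.25% of 4405 genes, and Mab21l1 is 1 of those 99 genes. Mab21l2 lies in the range of 3000 to 10000, where it was 0.159% of 3144 genes. Without a read in hippocampus replicates 4 and 5, Mab21l2 is 1 of those 5 genes.

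**Figure D3:**
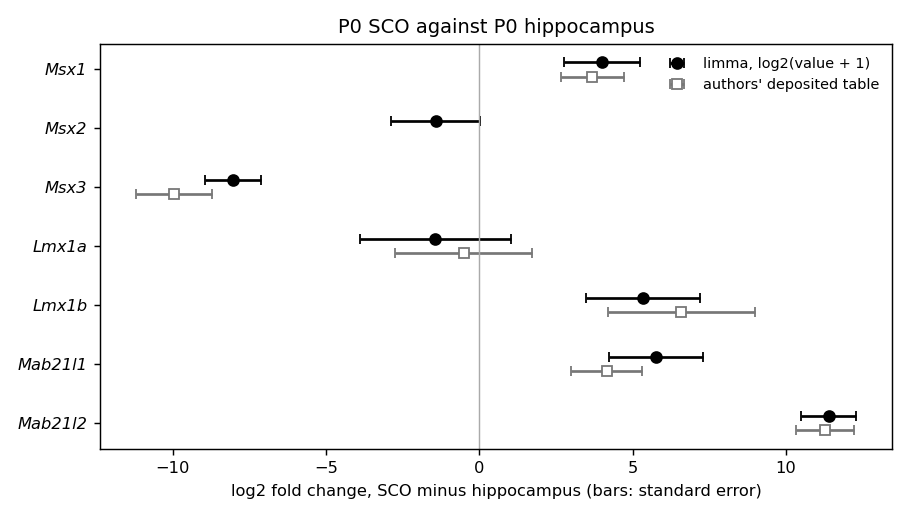
Log2 fold change of SCO minus hippocampus with its standard error, from limma on log2(normalized count + 1) (black) and from the authors' deposited table (open squares), for the 7 genes. Mab21l2 is at 11.39 and Msx3 at -8.03 in limma, the bars of Lmx1a cross 0 in both sources, and Msx2, which has no p-value in the authors' deposited table and stands there at -21.54, is drawn for limma only.

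The authors' deposited table places 5 of the 7 genes past an adjusted p of 0.05: Mab21l2, Mab21l1, Msx1 and Lmx1b higher and Msx3 lower in SCO. Of all genes with an adjusted p in the authors' deposited table, 12.7% pass and 6.98% pass as higher in SCO. Limma and the authors' deposited table gave the same direction for all 7 genes and differed in the calls of Msx1, Lmx1b and Mab21l1. An edgeR quasi-likelihood test on the recovered reads called Mab21l2 and Msx3 alone among the 7, beside 1.79% of all tested genes.

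To set the genes beside each other, recovered reads were scaled by the depth of the library and by the kilobases of merged exons (RPKM). In SCO, Mab21l2 was highest at 56.8 ± 13.0 RPKM (SD, n = 4), and its lowest library, 44.1, exceeded the highest Mab21l1 library, 35.3. Mab21l1 at 26.7 ± 8.67 RPKM and Msx1 at 24.9 ± 21.1 RPKM overlapped. Far below were Lmx1b at 0.975 ± 1.09, Lmx1a at 0.643 ± 1.06 and Msx3 at 0.00210 RPKM, while Msx2 had no read. Msx1 overlapped Lmx1b through SCO replicate 3 alone, where Msx1 was at 1.71 RPKM. Within the SCO libraries, Mab21l2 was 2.34, 2.93, 2.11 and 1.54 times the Mab21l1 level per length.

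In hippocampus Msx3 came first at 2.83 ± 1.99 RPKM (SD, n = 5). Msx1 at 1.92 ± 2.11, Mab21l1 at 1.51 ± 1.97 and Lmx1a at 0.911 ± 0.860 RPKM followed. Msx2 averaged 0.157, Mab21l2 0.0251 and Lmx1b 0.00972 RPKM, and each gene in this order overlapped its neighbour.

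**Figure D4:**
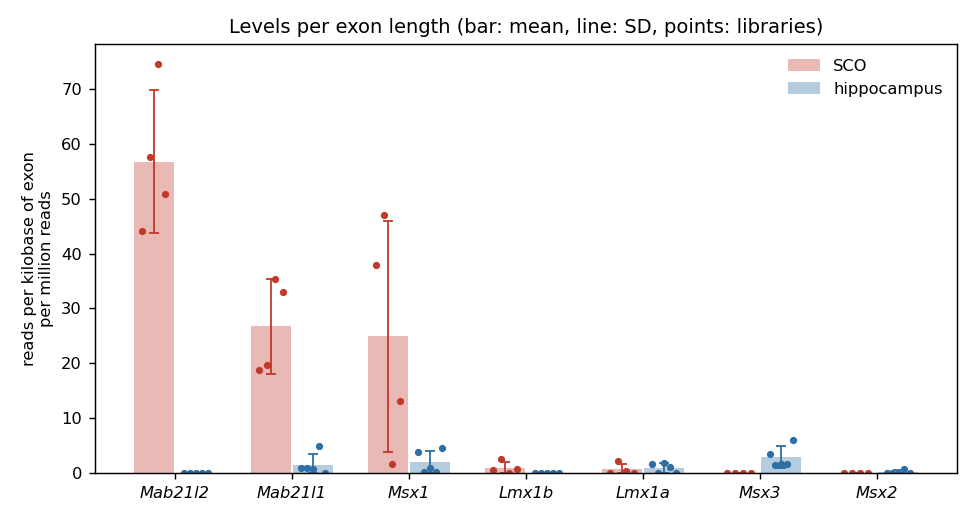
RPKM of the 7 genes per library, with SCO at the left (red, n = 4) and hippocampus at the right (blue, n = 5) of each pair, means as bars, and the SD as a line that is not drawn below 0. Mab21l2, Mab21l1 and Msx1 have means of 24.9 to 56.8 RPKM in SCO, and no mean in hippocampus exceeds 2.83.

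The signals upstream of these factors were read from gene lists. Of 17 tested genes for secreted signals of the roof plate and dorsal midline, 1 rose in SCO (Fgf15) and 0 fell, and their median log2 fold change was 0.35, against -0.04 over all tested genes. Fgf15, an FGF ligand gene, had 5591, 3532, 4519 and 4647 normalized counts in SCO, against 0, 3.30, 70.2, 0 and 426 in hippocampus (a difference of 8.74 in log2, limma adjusted p = 0.0218). Its call was lost when any SCO library was left out (limma adjusted p from 0.0546 to 0.0598). Gdf7, the BMP ligand gene that marks roof plate cells, had 1.49, 235, 0 and 0 in SCO, against 0, 1.65, 0, 0 and 321 in hippocampus, so 1 library of each tissue held nearly all of it. Bmp4, a BMP ligand gene, had 546, 10.3, 5.48 and 12.3 in SCO and no read in hippocampus, mostly in SCO replicate 1, and did not pass (limma adjusted p = 0.0813). The Wnt ligand gene Wnt1 had 46.3, 17.7, 0 and 1.12 in SCO and no read in hippocampus (limma adjusted p = 0.274).

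Of 23 genes for BMP receptors, effectors, antagonists and early targets, 0 passed in either direction by limma and 7 had an unadjusted p under 0.05, with a median log2 fold change of -0.52. EdgeR called 0 of them and DESeq2 6 (Acvr1, Bmpr1a, Fst, Id2, Id3 and Id4). The Id genes encode bHLH inhibitors that BMP signals induce, as they do Msx genes. Id1 averaged 2599.6 ± 429 normalized counts in SCO and 1171 ± 744 in hippocampus (limma adjusted p = 0.124), and Id3 8325 ± 926 in SCO and 5159 ± 1322 in hippocampus (limma adjusted p = 0.129). Id2 averaged 15193 ± 2648 in SCO and 36153 ± 12881 in hippocampus (limma adjusted p = 0.0589). The receptor gene Bmpr1a had 98.6 to 588 in SCO and 699.9 to 1568 in hippocampus, with no overlap (limma adjusted p = 0.0951). Bambi, a decoy receptor gene, had 1099.6, 1161, 5.48 and 1066 in SCO, against 21.2 to 329 in hippocampus. Among SCO libraries, Bambi and Bmpr1a were lowest in replicate 3, as Msx1 was. Id1 and Id2 were lowest in SCO replicate 1, and Id3 in SCO replicate 4.

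**Figure D5:**
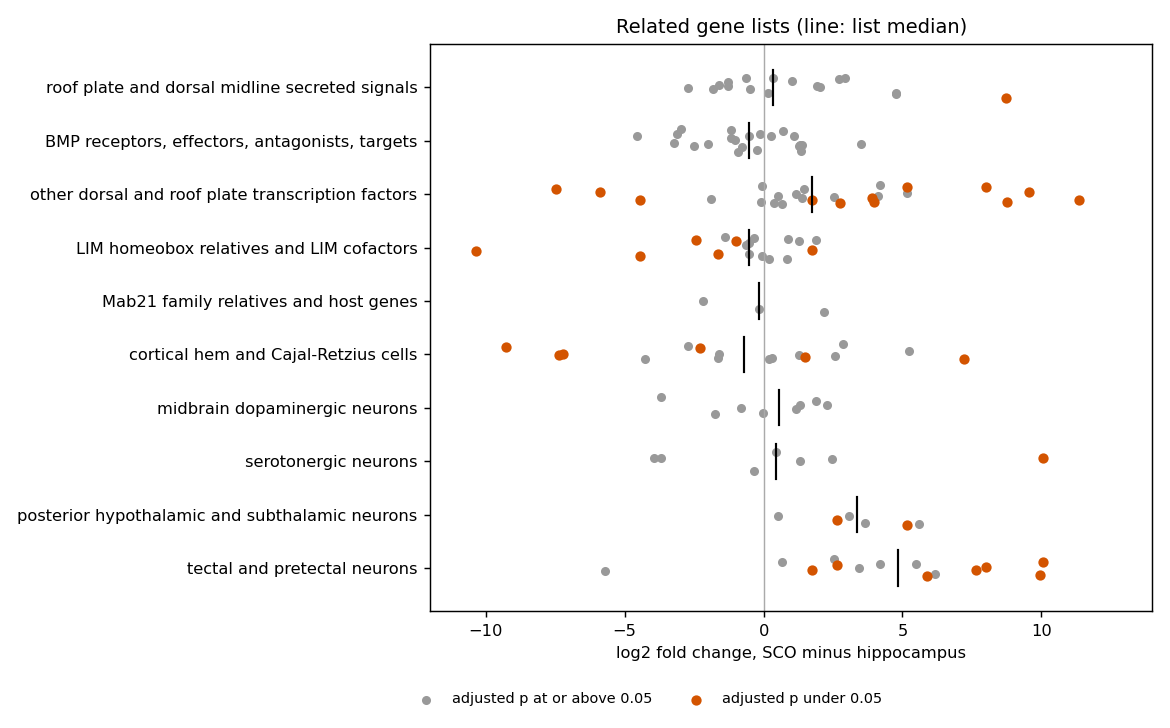
Log2 fold change of SCO minus hippocampus for the tested genes of 10 related lists, each gene a point, orange where the limma adjusted p is under 0.05 and grey otherwise, with the list median as a line. The medians run from -0.70 for cortical hem and Cajal-Retzius cells to 4.84 for tectal and pretectal neurons.

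In 9 of the 10 lists some gene had no read in a whole tissue, and setting these to their bound from 3 reads per library moved 2 medians, to 1.57 for the dorsal transcription factors and to 4.05 for the posterior hypothalamic genes, against 1.73 and 3.37.

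Among 25 other transcription factor genes of the dorsal neural tube, 9 rose in SCO and 3 fell, with a median log2 fold change of 1.73. Pax3, a paired-box gene of the dorsal neural tube, had 2684, 2049.5, 3654 and 2394 normalized counts in SCO and no read in hippocampus (limma adjusted p = 0.000117). Irx2, an Iroquois homeobox gene, had 268 to 400.2 in SCO and 0 to 1.65 in hippocampus (limma adjusted p = 0.00111). Otx2, a homeobox gene of forebrain and midbrain, had 7705 to 8708 in SCO and 0 to 197 in hippocampus (limma adjusted p = 0.00360). Pax6, a paired-box gene of the forebrain and eye, rose by 2.75 on the log2 scale (limma adjusted p = 0.00320).

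LIM homeodomain proteins such as Lmx1a and Lmx1b act with LIM cofactors. Of 17 tested LIM homeobox relatives and cofactors, 1 rose (Lhx9) and 5 fell (Lhx6, Lmo4, Lhx2, Ldb2 and Ssbp2), with a median log2 fold change of -0.52. Ldb1, the cofactor that joins these proteins into complexes, averaged 552 ± 239.9 normalized counts in SCO and 749 ± 180.3 in hippocampus (limma adjusted p = 0.600). Lmo4, a LIM-only gene whose product binds the same cofactors, averaged 2748 ± 1211 in SCO and 14175 ± 4042 in hippocampus (a difference of -2.43 in log2, limma adjusted p = 0.00356). Ldb2, a relative of Ldb1, fell by 1.63 on the log2 scale (limma adjusted p = 0.0217), a call lost without SCO replicate 1 or 2 or hippocampus replicate 3 or 4 (limma adjusted p from 0.0533 to 0.0597). Ssbp2 lost its call without SCO replicate 1, 2 or 4 or hippocampus replicate 1, 3 or 4 (limma adjusted p from 0.0535 to 0.0763), and Lhx9 without SCO replicate 1 or 2 or hippocampus replicate 4 (limma adjusted p from 0.0504 to 0.0627).

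Neighbouring cells can express the same genes, so their lists were read too. Lmx1a marks the cortical hem, which borders the hippocampus and gives rise to Cajal-Retzius cells. Of 16 genes of these cells, 2 rose in SCO (Ebf2 and Calb2) and 4 fell (Tbr1, Reln, Emx2 and Ndnf), with a median log2 fold change of -0.70. Wnt8b, a hem ligand gene, had no read in SCO and 1.10 to 43.0 normalized counts in hippocampus (limma adjusted p = 0.186). Reln, the reelin gene of Cajal-Retzius cells, averaged 1652 ± 626 in SCO and 8142 ± 2874 in hippocampus (limma adjusted p = 0.00443). The call of Ndnf was lost without any 1 library other than SCO replicate 4 (limma adjusted p from 0.0522 to 0.0877).

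Lmx1b and Lmx1a act in monoaminergic neurons of the brainstem and midbrain. Of 8 dopaminergic genes 0 passed by limma, edgeR or DESeq2, with 2 at an unadjusted limma p under 0.05. Of 7 serotonergic genes 1 rose (Gata3, also on the tectal and pretectal list) and 0 fell, with a median log2 fold change of 0.46. Tph2 averaged 2.22 normalized counts in SCO and 199.7 in hippocampus (limma adjusted p = 0.386). Slc6a4 averaged 2.49 in SCO and 28.1 in hippocampus, where replicate 3 alone held reads (limma adjusted p = 0.933). Of 6 posterior hypothalamic and subthalamic genes 2 rose (Irx3 and Foxp2) and 0 fell, and Foxp2 lost its call without SCO replicate 3 (limma adjusted p = 0.0623). Mab21l2 is known from the midbrain roof, and of 14 tectal and pretectal genes 7 rose (Tfap2b, Tcf7l2, Tfap2d, Gata3, Irx2, Slc17a6 and Lhx9) and 0 fell. Values of 9 of the 14 genes did not overlap between the tissues. Among these Meis2 was lower in SCO, at 0 to 754 normalized counts against 2570 to 3737, and did not pass (limma adjusted p = 0.107). Tcf7l2, a Wnt effector gene of thalamus and pretectum, had 31474, 22202, 45655 and 49664 normalized counts in SCO and 52.6 to 617 in hippocampus (limma adjusted p = 0.000589). The part of such neurons in the values of Mab21l2 and Mab21l1 was not tested.

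Choroid plexus and meninges also express Msx1 and Lmx1 genes. The summed level of 12 choroid plexus markers was 28739, 28228, 28123 and 243475 normalized counts in SCO replicates 1 to 4, against 4932 to 17036 in hippocampus. SCO replicate 4 was far above the others, and it held the third highest Msx1 value of the 4 and no read of Lmx1a. Of 11 tested choroid plexus markers 1 rose (Otx2) and 0 fell, with a median log2 fold change of 2.47. Folr1, Enpp2, Sostdc1 and Otx2 were higher in every SCO library than in any hippocampus library, and Kcnj13 had 0, 259.9, 0 and 2835 normalized counts in SCO and no read in hippocampus. Kl had no read in SCO and 1 read in hippocampus, too few to tell the tissues apart. The 13 meningeal and skull markers summed to 11199, 6521, 3185 and 16132 in SCO, lowest in replicate 3 as Msx1 was, and to 2370.1 to 13244 in hippocampus. Of these, 0 of 13 passed by limma, edgeR or DESeq2, with 0 at an unadjusted limma p under 0.05, and Twist1 had no read in SCO. The part of either tissue in the Msx1 and Lmx1 values was not tested. The 7 pineal markers in the table summed to 2787 to 10425 in SCO and 525 to 2132 in hippocampus. Of 6 tested, 1 rose (Chrna3, by 2.39 in log2, limma adjusted p = 0.0106) and 0 fell, with a median log2 fold change of 1.76, and Gngt2 did not overlap between the tissues. Crx had no read in SCO and 1 read in hippocampus.

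The summed levels of 3 further marker lists were also higher in every SCO library than in any hippocampus library. Ependymal markers summed to 16463 to 27952 normalized counts in SCO and 3382 to 6793 in hippocampus, and 4 of 8 rose (Cfap52, Mia, Rsph1 and Tmem212). Those of endothelium and blood summed to 42627 to 69123 in SCO and 8908 to 24395 in hippocampus, and 3 of 7 rose, the erythroid genes Hbb-bs, Hba-a1 and Alas2. Microglial markers summed to 21686 to 26664 in SCO and 8535 to 16111 in hippocampus, and 1 of 6 rose (Ctss). In these 3 lists 0 markers fell and none was without a read in a whole tissue. Their part in the values of the 7 genes was not tested.

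The genes whose pattern was most like that of each member were found by Pearson's r of log2(normalized count + 1) over the 9 libraries, as a description. The search took in 14918 genes whose mean reached 50 in a tissue. For Mab21l2 they were Ldlrad2 (r = 0.99), Mgst1 (0.99) and Spp2 (0.99). Ldlrad2, an LDL receptor class A domain gene, had 5367 to 9819 normalized counts in SCO and 0 to 1.65 in hippocampus, and Mgst1, a microsomal glutathione transferase gene, 7354 to 9009 in SCO and 548 to 1568 in hippocampus. For Msx3 they were Chrm1 (r = 0.99), Insc (0.99) and Egr3 (0.99), which together held 1 value above 0 in SCO. All these points share the gap between the tissues.

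For Mab21l1 the closest were Kif9 (r = 0.99), Wnt3 (0.97) and Otx1 (0.97). Otx1, a relative of Otx2, had 4434, 3819, 2198 and 2121 normalized counts in SCO, against 327, 330.2, 375, 593 and 5.33 in hippocampus. The Wnt ligand gene Wnt3 had 1034, 1818, 2067 and 1388 in SCO, against 162, 165, 113, 129.8 and 0.381 in hippocampus. Its limma adjusted p was 0.0905, and 0.00434 without hippocampus replicate 5. In the other 8 fits with 1 library left out Wnt3 did not pass (limma adjusted p up to 0.191). Like Mab21l1, all 3 were lowest in hippocampus replicate 5.

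For Msx1 the closest were Abcb4 (r = 0.96), Dhx32 (0.95) and Tcp11 (0.95), each lowest among SCO libraries in replicate 3. For Lmx1b they were Lama3 (r = 0.95), Mgst2 (0.95) and Krt23 (0.95), all 3 without a read in SCO replicate 3. For Lmx1a they were Zfp36 (r = 0.99), Pip4k2a (0.97) and Herc6 (0.95). Tmem156, Itgax and Pla2g4d came nearest to Msx2 (r = 1.00 for each), since they too were read in hippocampus replicate 4 only. Any gene read in that library alone reaches this r, whatever its level.

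Promoters, taken from RefSeq (GRCm38.p6) as 250 bases before to 50 after the gene start, were held for 6 of the 7 genes. The homeodomain core TAAT, searched on both strands, was found 5 times in the Msx2 promoter and 1 time each in those of Msx1 and Lmx1a, while 58.0% of all 32851 promoters hold it. The E-box CANNTG, whose letters cannot overlap TAAT, was found 1 time each in Msx1, Msx2, Lmx1a and Lmx1b, and 72.3% of all promoters hold it.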

How the data were processed

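Values of 9 P0 libraries were used. The submitters' processing notes name FastQC, HISAT, HISAT2, featureCounts, DESeq2 and GRCm38, without versions. Each library column was deposited as a normalized signal, reads scaled by a size factor. The deposited log2 fold change, statistic (a score), p-value and adjusted p-value are the authors' own comparison, per the file headers. Dividing a library by its smallest value above 0 gave whole reads for 100% of values (tolerance 1e-06). Versioned identifiers matched GENCODE M21 for 31302 genes.

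Limma-trend was fitted to log2(value + 1), with a pseudocount of 1, over genes whose mean reached 1 in a tissue. Fold changes are SCO minus hippocampus, and the scale understates those of low genes. The fit was also run on simulated counts, and no support for the calls is drawn from that run. A gene without a call may still differ between the tissues. Alternatives were edgeR and DESeq2 on recovered reads, TMM scaling, other filters and pseudocounts, robust moderation, a replicate block, and leaving out libraries. The 7 genes and all lists were chosen with earlier results of these data known. Named genes are the 7 members, from each list at most 6 called genes with the smallest adjusted p plus known ligands, cofactors and host genes, and the 3 genes most like each member. Bmpr1a, Bambi, Id1, Id2, Id3 and the cell type markers lie outside this rule and were named after their values were seen. Tph2, Slc6a4, Meis2, Acvr1, Fst and Id4 lie outside this rule as well. Some items of these lists and families are not reported here. Software was R 4.3.3, limma 3.58.1, edgeR 4.0.16, DESeq2 1.42.0, Python 3.11.15 and matplotlib 3.10.9.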

Additional observations from a re-analysis of the deposited data

Results flagged for a closer look

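Of 13 groups of libraries with differing values, 4 held a far library. Its distance from its nearest neighbour took up most of the range of its group. In the groups of Msx2, Msx3 and Lmx1b only 1 library was above 0, so this distance was the whole range whatever its value. How often such groups arise by chance was not tested. Msx2 had 142 normalized counts in hippocampus replicate 4 and 0 in the other hippocampus libraries. Msx3 had 1.12 in SCO replicate 4, which is 1 read, and 0 in the other SCO libraries. Lmx1b had 12.9 in hippocampus replicate 5 and 0 in the other 4. Mab21l1 had 684 in hippocampus replicate 4, against 0 to 134 in the others, and this library remained below every SCO library.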

How the results depend on the processing

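Mab21l2 and Msx3 kept their direction and their call under every alternative run except the replicate block, where their log2 fold changes were 10.93 and -7.70 (limma adjusted p = 0.0729 and 0.0820). Same-numbered libraries hardly correlated in their deviations from the tissue means (r from -0.03 to 0.02), which cannot tell whether samples were paired. Library numbers in the column headers differ from the replicate numbers, and pairing by them was not fitted. With the replicate block 0 members and 0 list genes were called in either direction, and 0 genes of all higher and 1 lower. No SCO library shares the number of hippocampus replicate 5, so that library adds nothing to the differences in this fit. The block also leaves fewer degrees of freedom for the spread than the main fit. DESeq2 on the recovered reads called 4 members higher, adding Msx1 (3.68), Lmx1b (6.59) and Mab21l1 (4.15), and a pseudocount of 5 called 2, adding Mab21l1 (5.25). Of all genes, limma called 481 higher and 378 lower, edgeR 300 and 203, and DESeq2 1493 and 1215. In either direction this is 3.05% of 28150 genes for limma, 1.79% of 28150 for edgeR and 12.8% of 21144 for DESeq2. Of the related lists, limma called 11 lower, edgeR 7 and DESeq2 17.

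With a library, or the pair SCO replicate 4 and hippocampus replicate 2, left out, 1 to 2 members were called higher and 1 lower, 285 to 647 genes higher and 189 to 457 lower, and 15 to 21 list genes higher and 7 to 12 lower. The lowest higher count, 285, came without SCO replicate 3, and the lowest lower count, 189, without hippocampus replicate 3. The log2 fold change ran from 10.93 to 11.76 for Mab21l2, 4.23 to 6.59 for Mab21l1, 3.44 to 4.99 for Msx1, 4.23 to 7.36 for Lmx1b, -8.45 to -7.70 for Msx3, -3.09 to -0.21 for Lmx1a and -1.79 to -1.43 for Msx2. Without hippocampus replicate 4, Msx2 gave no value.

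Directions turned for Herc6 (-1.20 in the limma fit), at 1.01 in edgeR, 1.04 in DESeq2 and 0.47 without SCO replicate 1 or 4, in a range of -3.02 to 0.47 over left-out libraries. Nbea (-0.15) was at 0.051 with the replicate block or without hippocampus replicate 5, in a range of -0.29 to 0.051. Gdf7 (0.35) was at -0.18 in edgeR, -1.51 without SCO replicate 2, and -0.13 without hippocampus replicate 1, 3 or 4, in a range of -1.51 to 1.95. None of these 3 genes passed in limma. TMM scaling put the median of all genes at -0.10, against -0.04. The causes were not tested.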
